A study of Mus musculus with 19 samples.

Results

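The nuclear-encoded subunits of oxidative phosphorylation (OXPHOS) were examined in the livers of female mice that did or did not carry Gramd1c, the gene for the sterol transporter Aster-C. Members were all genes whose mouse symbol has the form of a complex I (Nduf), complex II (Sdh), complex III (Uqcr), complex IV (Cox4 to Cox8) or ATP synthase (Atp5) subunit. This gave 83 of the 49315 genes counted: 36 named for complex I, 4 for complex II, 8 for complex III, 18 for complex IV and 17 for complex V, the ATP synthase. Genes entered by name only and not by a measured value, but the set was chosen with earlier results of these data known. Ndufa4 was placed in complex I by its name, although its product is now known as a subunit of complex IV.

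The 4 groups were Gramd1c+/+ and Gramd1c-/- littermates on a diet with 0.02% (wt/wt) cholesterol (low) or 0.2% cholesterol (high), called Gramd1c+/+ low (n = 5), Gramd1c-/- low (n = 4), Gramd1c+/+ high (n = 5) and Gramd1c-/- high (n = 5). Gramd1c-/- mice carried the tm1a(KOMP)Wtsi knockout-first allele, a gene trap present in every cell, from the strain C57BL/6N-Atm1Brd. All mice came from crosses of heterozygotes, entered the diets at 8 weeks of age and were kept on them for 4 weeks. Each mouse gave 1 bulk RNA-seq library, so replicates are separate animals and none were pooled.

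Libraries held between 27149972 and 34669648 counts. Gramd1c stood at 9.56 to 16.0 TPM, a level scaled by gene length and library size, in Gramd1c+/+ mice and at 1.07 to 3.61 TPM in Gramd1c-/- mice, with no overlap. A label field names gonadal adipose tissue and another names liver. The liver markers (Alb, Apoa1, Ttr, Serpina1a, Cps1 and Cyp2e1) summed to 82710 TPM or more in each mouse, while the fat markers summed to at most 5.43 TPM in all mice but Gramd1c+/+ low replicate 2, which had 31.1 TPM. That library also held adrenal cortex markers at 568.8 TPM in sum, against 0.658 to 3.70 TPM in the other 18 mice. Gramd1c-/- high replicate 5 stood apart as well, with the highest complex I sum and the lowest complex II sum of all mice. Values that change most without these libraries are also given without them.

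OXPHOS complexes sit in the inner mitochondrial membrane. Complexes I and II take electrons from NADH and succinate, complex III passes them to cytochrome c, and complex IV passes them to oxygen. Complexes I, III and IV pump protons, and the ATP synthase uses the resulting gradient to make ATP. Complex II is also an enzyme of the citric acid cycle. Most subunits are encoded in the nucleus, made on cytosolic ribosomes and imported, while a small core is encoded on mitochondrial DNA. In liver these complexes drive fatty acid oxidation, gluconeogenesis and urea synthesis. The transcription factors NRF1, GABP (an ETS family factor whose DNA-binding subunit is Gabpa) and YY1 are known to bind promoters of many nuclear OXPHOS genes.

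Promoter sequences are shown because most members moved together from mouse to mouse, as described below. RefSeq sequences on GRCm38.p6 were found for 65 of the 83 members, each running from 250 bases before to 50 bases after the annotated start, and the start listed first was used. Both strands were searched for NRF1 (GCGCANGCG), ETS (CCGGAAG), YY1 (AANATGGCG), the oestrogen-related receptor ERR (TCAAGGTCA), SP1 (GGGCGG) and the E-box (CACGTG). The NRF1 letters were in 19 of 65 member promoters (29.2%), against 13.1% of the 10969 promoters of genes that passed the count filter and 6.47% of all 27025 promoters. The ETS letters were in 23.1% of the members, against 17.3% and 9.12%, and the YY1 letters in 12.3%, against 5.01% and 2.51%. At least 1 of these 3 motifs was present in 53.8% of the members and in 30.7% of the promoters of genes that passed the filter. SP1 letters were in 38.5% of the members and 61.8% of those promoters. The median GC content was 57.3% in the members and 60.3% in promoters of genes that passed. Promoters of the ATP synthase held NRF1, ETS or YY1 letters in 9 of 13 cases, and promoters of complex IV in 3 of 12.

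The 250 bases before the start follow for the member, among those with a promoter sequence, that moved most like the rest in complexes I, III, IV and V and for Sdha, the member that moved least like the rest. Capitals mark matches to NRF1, ETS, YY1 or ERR on either strand.
Ndufs6 (chr13:73328483-73328732, minus strand): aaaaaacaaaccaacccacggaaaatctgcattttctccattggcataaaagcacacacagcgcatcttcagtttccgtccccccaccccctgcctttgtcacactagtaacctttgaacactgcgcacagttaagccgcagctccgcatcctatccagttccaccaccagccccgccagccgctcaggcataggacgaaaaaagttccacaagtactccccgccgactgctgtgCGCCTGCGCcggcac
Uqcr11 (chr10:80406822-80407071, minus strand): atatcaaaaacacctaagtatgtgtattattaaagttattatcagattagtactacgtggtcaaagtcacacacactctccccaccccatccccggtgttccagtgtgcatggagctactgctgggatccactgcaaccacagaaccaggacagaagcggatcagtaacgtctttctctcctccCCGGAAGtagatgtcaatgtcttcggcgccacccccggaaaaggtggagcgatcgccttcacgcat
Cox6b1 (chr7:30626115-30626364, minus strand): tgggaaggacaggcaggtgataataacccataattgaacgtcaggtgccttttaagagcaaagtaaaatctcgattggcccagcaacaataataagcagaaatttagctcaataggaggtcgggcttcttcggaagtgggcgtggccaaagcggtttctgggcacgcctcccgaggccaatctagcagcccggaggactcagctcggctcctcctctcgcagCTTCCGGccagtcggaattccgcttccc
Atp5j (chr16:84835626-84835875, minus strand): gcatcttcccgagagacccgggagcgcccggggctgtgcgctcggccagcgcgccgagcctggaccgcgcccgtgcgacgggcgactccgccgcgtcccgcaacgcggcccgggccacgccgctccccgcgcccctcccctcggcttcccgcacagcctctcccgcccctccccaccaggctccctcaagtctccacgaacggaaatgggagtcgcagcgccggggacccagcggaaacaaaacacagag
Sdha (chr13:74350241-74350490, minus strand): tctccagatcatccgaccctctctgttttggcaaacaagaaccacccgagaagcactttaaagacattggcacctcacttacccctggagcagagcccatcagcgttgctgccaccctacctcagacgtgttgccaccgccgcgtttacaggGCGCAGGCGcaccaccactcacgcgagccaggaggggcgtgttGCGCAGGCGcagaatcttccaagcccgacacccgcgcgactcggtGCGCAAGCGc
The Ndufs6 sequence held 1 NRF1 match, 15 bases before the start, and the Uqcr11 and Cox6b1 sequences each held 1 ETS match, at 66 and 28 bases. The first listed Atp5j promoter held no match, while the Sdha promoter held 3 NRF1 matches. Presence of the letters did not sort these 5 genes by how closely they followed the other subunits. Over all 62 members with a promoter and a fitted value, the median correlation with the other members was 0.94 both for the 35 with NRF1, ETS or YY1 letters and for the 27 without, as a description. Atp5j lies head to head with Gabpa, and the annotated genes overlap by 701 bases on opposite strands.

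All but 6 members were expressed well enough in liver to be tested. The summed level of all members was 17789 ± 1962 TPM (mean ± SD, n = 5) in Gramd1c+/+ low, 16798 ± 496 TPM (n = 4) in Gramd1c-/- low, 18193 ± 1536 TPM (n = 5) in Gramd1c+/+ high and 19317 ± 3364 TPM (n = 5) in Gramd1c-/- high. Each group's range overlapped those of the other 3. In bulk liver RNA, fewer cells of a type and less RNA per cell cannot be told apart. TPM was calculated with the deposited gene lengths, which add up all annotated exons. At equal counts a longer deposited length gives a lower TPM, which concerns Ndufb2 (5628 bases), Atp5l (6443 bases) and Ndufs1 (8086 bases). Liver may not use all of these exons, and exon use was not measured.

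Complex III had the highest median level per tested subunit (322 TPM, 8 subunits), followed by complex II (273 TPM, 4), complex IV (222 TPM, 12), the ATP synthase (160 TPM, 17) and complex I (139 TPM, 36). Within complex I the order was led by Ndufb9 (599 TPM, mean of 19 mice), Ndufa4 (448 TPM) and Ndufa6 (436 TPM), and Ndufb2 was lowest at 21.4 TPM. The 7 core subunits, which hold the flavin and the iron-sulphur clusters that carry electrons, had a median of 113.5 TPM. Ndufs1 among them stood at 31.3 TPM, with a deposited length of 8086 bases and a mean of 3454 counts. In complex II, Sdhd (335 TPM), a membrane anchor, and Sdha (317 TPM), the flavoprotein that oxidises succinate, stood above the iron-sulphur subunit Sdhb (229 TPM) and the anchor Sdhc (139 TPM). In complex III, Uqcrb (474 TPM), Uqcr11 (367 TPM) and Uqcrq (360 TPM), all small subunits, were highest and the large core protein Uqcrc1 (139 TPM) was lowest. Cox6a1 was the most abundant member of all at 1141 TPM, followed in complex IV by Cox8a (747 TPM) and Cox4i1 (674 TPM). Atp5a1 (751 TPM) and Atp5b (659 TPM), which form the catalytic head of the ATP synthase, led complex V. Atp5g3 (383 TPM), a gene for the rotating c ring, came next, and Atp5s, a coupling factor, was lowest at 8.82 TPM.

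**Figure D1:**
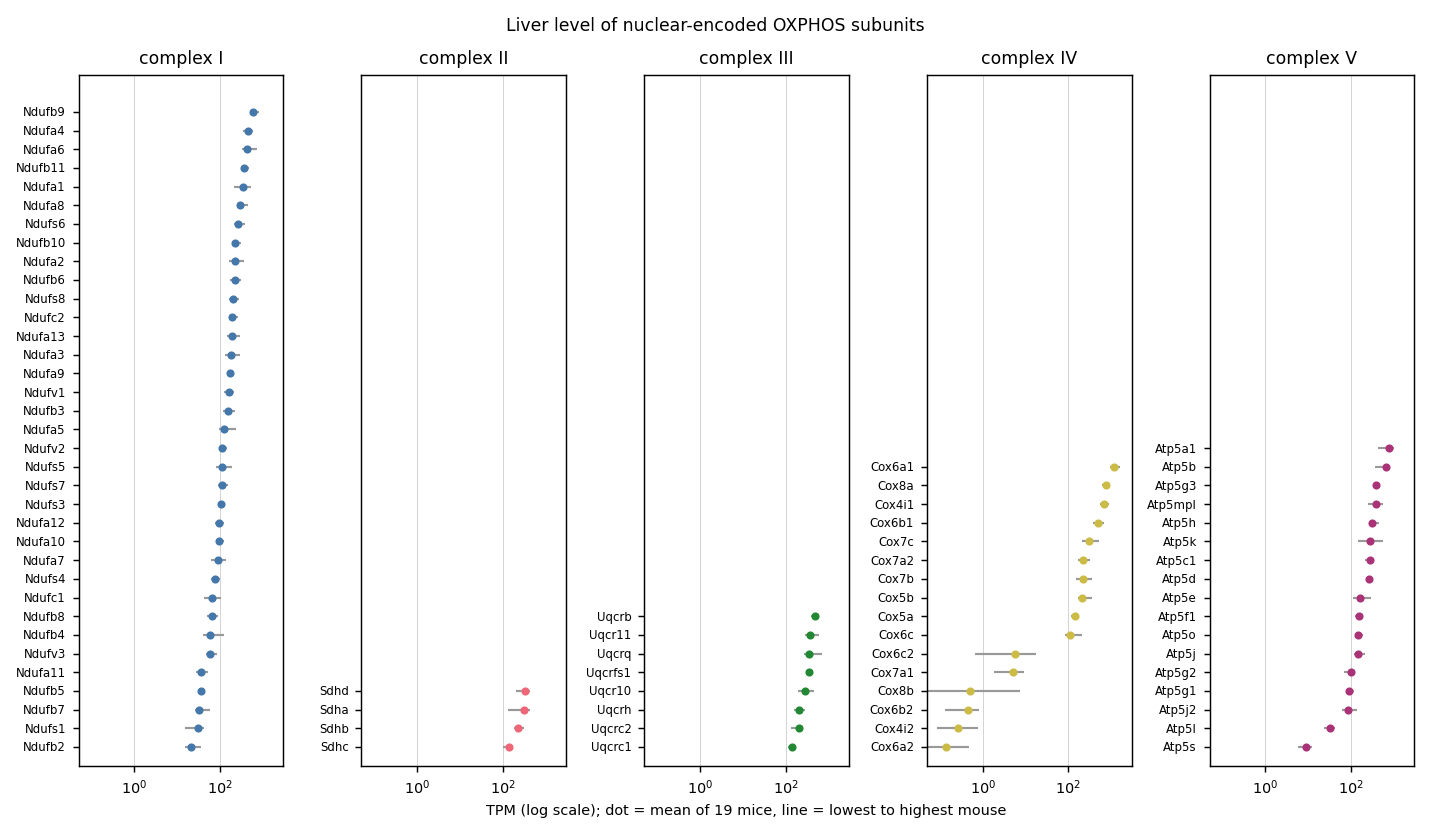
Level of detected OXPHOS subunits in TPM on a log axis, by complex. Dots are means of 19 mice and lines run from the lowest to the highest mouse, with lines that reach 0 ending at the left edge. Most subunits lie within a narrow band between mice. Atp5s, Cox6c2 and Cox7a1 lie below these, and the 4 lowest complex IV subunits lie far below the rest.

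Complex IV carries subunits with tissue-specific copies, and liver used the general form of each. Cox4i1 made up 99.86% or more of Cox4i TPM in each mouse, and Cox4i2, the form known from lung and low oxygen, had 1 to 8 counts per mouse. Cox6a1 made up 99.96% or more against Cox6a2, the heart and muscle form, which had 0 to 5 counts and was at 0 in 8 mice. Cox6b2, a testis form, had 2 to 12 counts, and Cox7b2 and Cox8c, also known from testis, had 0 counts in all 19 mice, where 3 counts would be the limit that a 0 allows.

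Cox8b, the form of heart, muscle and brown fat, differed in a single library. It had 37 counts in Gramd1c+/+ low replicate 2 and 0 in the other 4 mice of that group. Counts were 0, 0, 0 and 2 in Gramd1c-/- low, 0, 0, 0, 0 and 1 in Gramd1c+/+ high and 2, 4, 0, 0 and 2 in Gramd1c-/- high. No mouse other than replicate 2 of Gramd1c+/+ low thus exceeded 4 counts. The same library had 91 counts of Ucp1 and 27 of Cidea, both genes of brown fat, against at most 1 and 2 counts in other mice. The striated muscle genes Ckm and Acta1 and the heart gene Myh6 were at 0 in it, while the 4 heart markers summed to 3.04 TPM, the highest of all mice.

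Cox7a1, the heart and muscle form of subunit 7a, was low but present in each mouse (chromosome 7, 30184144 to 30186078, plus strand, GRCm38 as in the files). It stood at 5.32, 3.04, 3.61, 1.85 and 6.78 TPM in Gramd1c+/+ low and at 6.60, 9.004, 3.65 and 4.34 TPM in Gramd1c-/- low. On high cholesterol it stood at 3.24, 5.19, 3.73, 4.10 and 2.94 TPM in Gramd1c+/+ and at 6.39, 8.41, 8.04, 5.75 and 5.27 TPM in Gramd1c-/- mice. On the high diet each Gramd1c-/- TPM value lay above each Gramd1c+/+ value, while on the low diet the groups overlapped. Cox7a1 contributed 0.668% to 4.66% of the TPM of the pair, and Cox7a2 the rest. Striated muscle markers summed to at most 2.64 TPM in any mouse.

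Cox6c2 is a single-exon copy of Cox6c (chromosome 12, 56373593 to 56373823, minus strand), and reads can be shared between near-identical copies, so its counts are uncertain. It had 5, 4, 6, 8 and 5 counts in Gramd1c+/+ low and 26, 24, 36 and 2 in Gramd1c-/- low. It had 4, 11, 28, 13 and 39 counts in Gramd1c+/+ high and 41, 59, 7, 4 and 17 in Gramd1c-/- high. The counts ran from below 10 to above 20 in 3 of the 4 groups, and Gramd1c+/+ low was low throughout. Cox6c2 reached 0.724% to 12.0% of the TPM of the Cox6c pair.

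The ATP synthase c ring is built from 1 protein that is encoded by 3 genes. Atp5g3 gave 66.9% of their TPM over all mice, Atp5g2 17.2% and Atp5g1 15.9%. The Atp5g3 share was 66.3% ± 0.492 (SD, n = 5) in Gramd1c+/+ low, 66.4% ± 1.09 (n = 4) in Gramd1c-/- low, 67.4% ± 1.75 (n = 5) in Gramd1c+/+ high and 67.4% ± 1.85 (n = 5) in Gramd1c-/- high, which differed by less than the spread on the high diet.

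The members' main variation lay between mice of the same group. For each mouse the log2 CPM (counts scaled to library size) of each tested member was set against that member's mean over 19 mice, and the median over 77 members was taken. This median deviation was -0.12, -0.36, -0.00, 0.15 and 0.18 in Gramd1c+/+ low and 0.01, -0.14, -0.06 and -0.23 in Gramd1c-/- low. It was 0.01, 0.26, 0.51, -0.33 and -0.09 in Gramd1c+/+ high and 0.26, 0.38, -0.44, -0.32 and 0.49 in Gramd1c-/- high. Both high-cholesterol groups held mice at either end, and Gramd1c-/- low was the narrowest group. The within-group SD of the median was 0.30, on the log2 scale, while group means ran from -0.11 to 0.07.

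Complexes I, III, IV and V moved closely together across mice, although their order of mice was not identical. Across mice, after the group means were taken out, the median deviations of complex I correlated at r = 0.97 with complex III, 0.97 with complex IV and 0.98 with complex V (n = 19, a description). These points share the same libraries and scaling. The median correlation over all pairs of members was 0.83, against -0.00 over pairs of the 15016 genes tested. It was 0.02 over the 8882 genes at least as abundant as the lowest of the 75 well-expressed members, a set not matched to the members in level. Over the members it was 0.85 without Gramd1c+/+ high replicate 3 and Gramd1c-/- high replicate 5, the mice with the highest medians, and 0.77 among low-cholesterol mice alone. Uqcrb and Uqcr11 of complex III, Ndufs6, Ndufb6 and Ndufb11 of complex I and Atp5j of the ATP synthase peripheral stalk followed the median of the others most closely, with r from 0.975 to 0.984. In total, 52 of 77 members had r over 0.9.

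**Figure D2:**
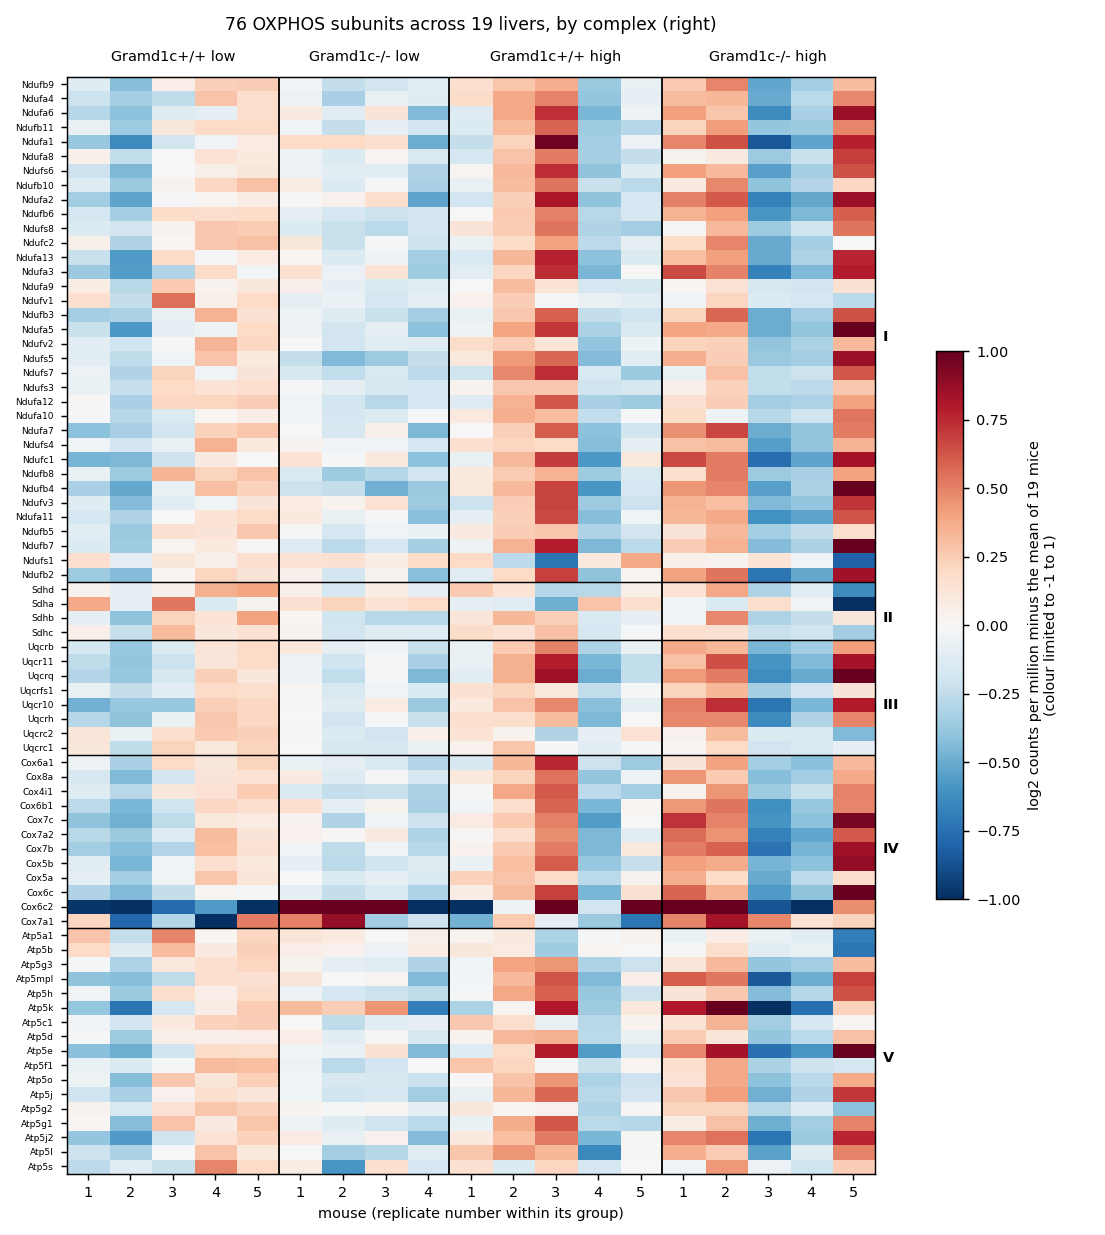
Log2 CPM of 76 OXPHOS subunits in 19 livers, each as the difference from the subunit's mean over all mice, with colour limited to -1 to 1. Columns are mice by group and rows are subunits by complex. Most rows share 1 column pattern, red in Gramd1c+/+ high replicate 3 and Gramd1c-/- high replicate 5 and blue in Gramd1c-/- high replicate 3. Sdha, Sdhd, Ndufs1, Uqcrc2, Atp5a1 and Atp5b are among the rows that are blue in the first 2 of these mice.

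Complex II was the exception among complexes. Its summed TPM was 1047, 1015, 1150, 1102 and 1180 in Gramd1c+/+ low, 1017, 974, 988 and 1032 in Gramd1c-/- low, 1051, 977, 773, 1106 and 1098 in Gramd1c+/+ high and 983, 1141, 1090, 999 and 666 in Gramd1c-/- high. The lowest sums, 773 and 666 TPM, belonged to the same mice that had the highest medians over all members. Complex I in those mice stood at 7404 and 8356 TPM, against 5259 to 7674 TPM in the others, where only Gramd1c-/- high replicate 2 exceeded 7404 TPM. The complex II median deviation correlated at 0.40 with the median of all members and at 0.66 with the citric acid cycle genes, a list of 13 that holds no complex II subunit.

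Within complex II, Sdha was the subunit that ran against the other members across mice. Sdha TPM was 381, 327, 416, 277 and 308 in Gramd1c+/+ low, 328, 359, 332 and 371 in Gramd1c-/- low, 276, 256, 182, 424 and 361 in Gramd1c+/+ high and 282, 268, 413, 324 and 132 in Gramd1c-/- high. Its lowest values, 182 and 132 TPM, were in the mice highest for the other subunits, and its highest, 424 TPM, was in a mouse among the lowest for them. Its next highest values, 416 and 413 TPM, were in a mid-range mouse and in the lowest mouse. Sdhb, its partner in the catalytic pair, had r = 0.82 with the median of the other members, against -0.62 for Sdha. The membrane anchors lay between these, with r = 0.24 for Sdhd and 0.58 for Sdhc. Sdhd was also lowest in Gramd1c-/- high replicate 5 and Gramd1c+/+ high replicate 3, at 200.5 and 226 TPM against 294 to 425 TPM in the other mice, and Sdhc was lowest in the former, at 102 TPM.

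Ndufs1, the largest complex I core subunit, and the ATP synthase head subunits Atp5a1 and Atp5b also had negative correlations with the other members over all 19 mice. Ndufs1 stood at 32.6, 32.5, 30.9, 31.6 and 33.6 TPM in Gramd1c+/+ low and at 32.3, 34.0, 31.8 and 36.6 TPM in Gramd1c-/- low. On high cholesterol it stood at 33.7, 22.8, 15.2, 36.9 and 41.8 TPM in Gramd1c+/+ and 29.6, 30.1, 39.8, 32.0 and 16.3 TPM in Gramd1c-/- mice. Low-diet mice were within a narrow range, and the spread arose on the high diet. The correlation with the other members was -0.56 for Ndufs1, -0.20 for Atp5a1 and -0.21 for Atp5b. Without Gramd1c+/+ high replicate 3 and Gramd1c-/- high replicate 5 these values became -0.17, 0.38 and 0.61, and Sdha stayed at -0.41, so the negative values of Atp5a1 and Atp5b, and most of that of Ndufs1, rest on those 2 mice. Among the 9 low-cholesterol mice r was 0.49 for Ndufs1, 0.40 for Atp5a1 and 0.52 for Atp5b, and Sdha alone was below 0, at -0.09. With the citric acid cycle genes the correlations were 0.80 for Ndufs1, 0.68 for Sdha, 0.84 for Atp5a1, 0.85 for Atp5b and 0.79 for Uqcrc2.

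These 4 are the members with the longest coding sequences, and coding length went with behaviour across members. Coding lengths were taken as the longest in GENCODE M21. The SD between mice of a group fell with coding length over the 75 members other than Cox6c2 and Cox7a1 (Spearman rho = -0.79, a description across genes, which are not independent replicates). The rho with the full deposited gene length was -0.42. Members with a coding length under 450 bases had a median within-group SD of 0.40 (43 members), those of 450 to under 900 bases 0.28 (22) those of 900 to under 1500 bases 0.19 (7) and the 4 of 1500 bases or more 0.27, so the fall did not continue into the longest class. Among other genes of the same classes the medians were 0.34 (804 genes), 0.27 (2605), 0.26 (3746) and 0.29 (6019). By role, the median r with the other members was 0.95 for the 28 accessory subunits of complex I and 0.97 for the 5 small subunits of complex III, and it was 0.81 for the 7 core subunits of complex I and 0.70 for the 5 subunits of the ATP synthase catalytic head and stem. Ndufv3 was an exception, with a coding length of 1404 bases and r = 0.94.

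**Figure D3:**
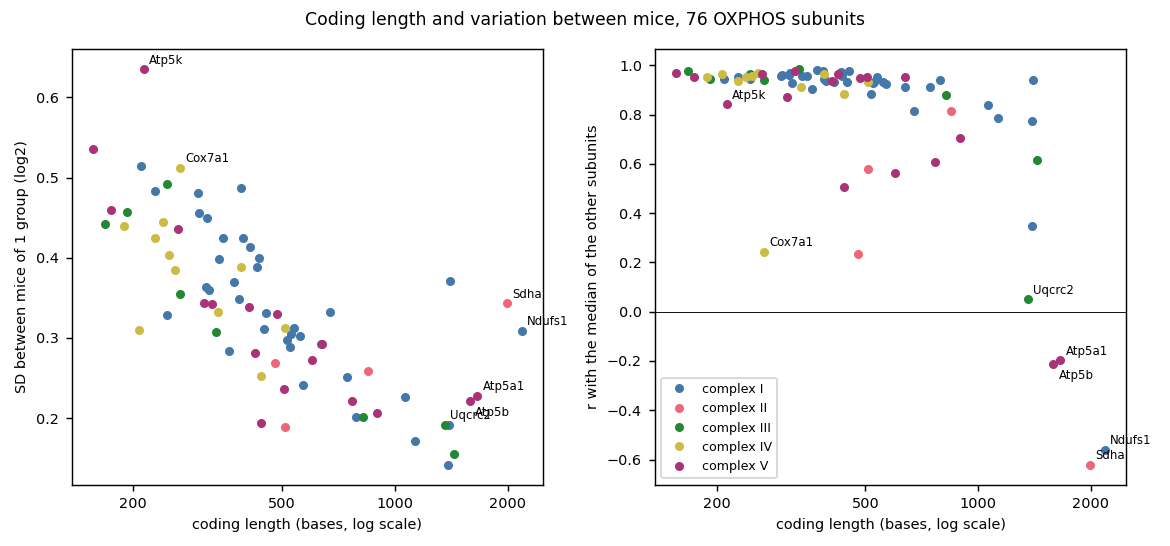
Coding length (bases, log axis) of 76 OXPHOS subunits against the SD between mice of a group (left, log2 scale) and against the correlation with the median of the other subunits across 19 mice (right). Points are subunits coloured by complex. Short subunits have the largest spread and the highest correlation, and Sdha, Ndufs1, Atp5a1 and Atp5b, at 1587 to 2181 bases, have correlations below 0.

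The swing between mice was shared with genes outside OXPHOS. The median deviation of all members correlated at 0.94 with that of 80 cytosolic ribosomal protein genes and at 0.95 with that of 766 other genes with a coding length under 450 bases, both sets added after values were seen (n = 19, group means taken out). Ribosomal protein genes ran from -0.46 in Gramd1c-/- high replicate 3 to 0.61 in Gramd1c-/- high replicate 5, and the other short genes from -0.26 to 0.39. These sets share libraries, depth and scaling with the members. The 13 mitochondrially encoded subunits followed less closely, at r = 0.77, with the extremes at -0.68 in Gramd1c+/+ low replicate 2 and 0.91 in Gramd1c+/+ high replicate 3. Citric acid cycle genes did not follow, at r = -0.17. The part of RNA quality, gene length and library preparation in this swing was not tested.

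**Figure D4:**
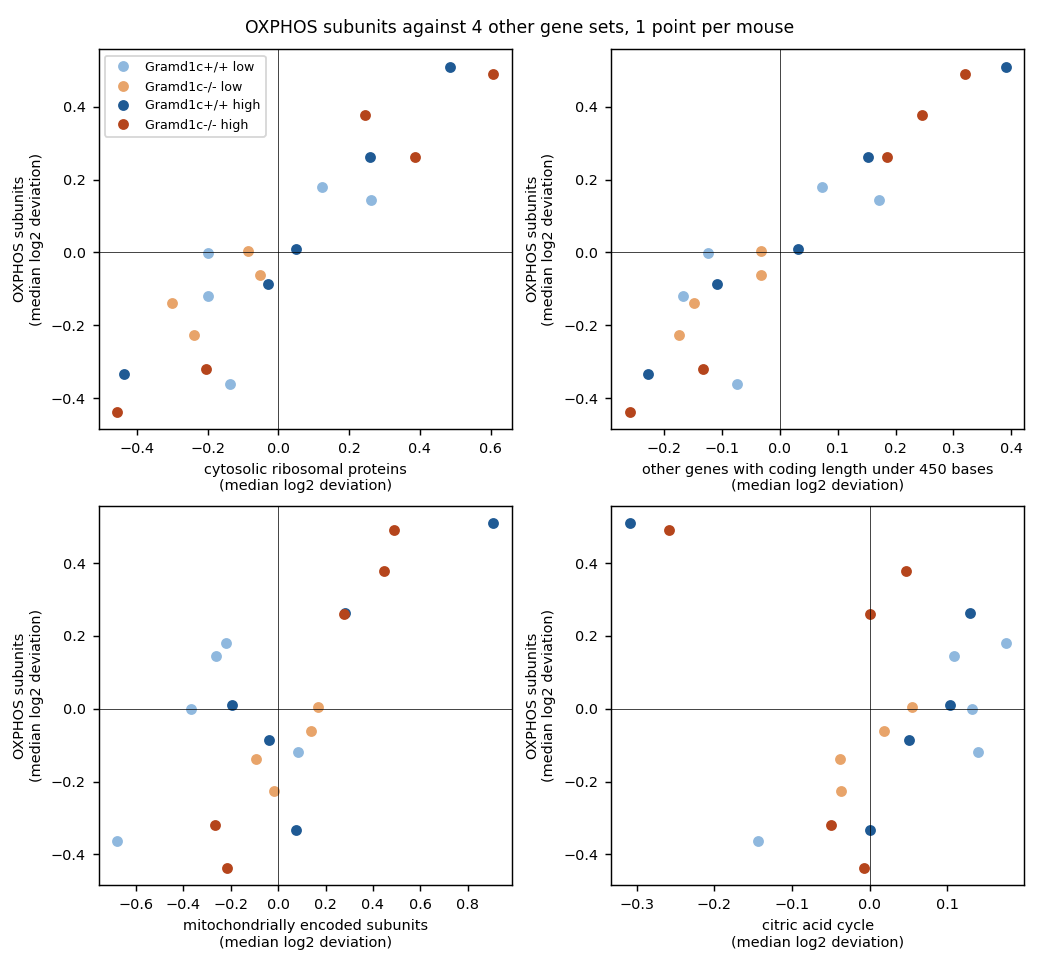
Median log2 deviation of the OXPHOS subunits (vertical) against that of 4 other gene sets (horizontal), 1 point per mouse and colour by group. Mice fall along a line for ribosomal protein genes and for other short genes, where r was 0.94 and 0.95 once group means were taken out, and do not for citric acid cycle genes.

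The effect of Gramd1c loss was compared on each diet. On low cholesterol 0 of 77 members were called at an adjusted p below 0.05 by edgeR's quasi-likelihood test, against 0.00666% of all genes tested (1 of 15016), and 1 member had an unadjusted p below 0.05. DESeq2 and limma also called 0, with 2 and 1 members below the unadjusted threshold. By edgeR 1.3% of members lay below it, against 2.66% of all genes. In direction, 57 of 77 members were lower in Gramd1c-/- mice, with a median log2 fold change of -0.10, against -0.00 over all genes. The median was -0.18 without Gramd1c+/+ low replicate 2, the library with adrenal markers. On the log2 CPM scale no member had groups that did not overlap, against 2.23% of all genes. In TPM the groups of some members did not overlap, narrowly for Cox4i1. It stood at 586.7 TPM or more in Gramd1c+/+ and at 579.9 TPM or less in Gramd1c-/- mice. The share of all genes apart in TPM was not counted, so this cannot be set against a background. The medians were -0.11 for complex I, -0.19 for complex II, -0.08 for complex III, -0.00 for complex IV and -0.15 for the ATP synthase. The smallest p belonged to Cox6c2 (log2 fold change 2.07, SE 0.79, adjusted p = 0.999), whose counts are given above and overlap between the groups through the Gramd1c-/- mouse with 2 counts. Ndufv1, which binds NADH, came next, at 169, 152, 216, 164 and 177 TPM in Gramd1c+/+ and 142, 151, 138 and 156 TPM in Gramd1c-/- mice. The ranges overlapped narrowly, with a log2 fold change of -0.27 (SE 0.14, adjusted p = 0.999), and of -0.16 without Gramd1c+/+ low replicate 3, the mouse at 216 TPM. Ndufb8 (-0.35), Uqcrc2 (-0.21) and Uqcrc1 (-0.19) completed the 5 smallest p-values, all with adjusted p = 0.999.

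On high cholesterol the median over members was 0.02, against 0.01 over all genes, and 45 of 77 were higher in Gramd1c-/- mice. With libraries scaled by total counts alone 69 of 77 were higher, with a median of 0.10 that lay close to the all-gene median of 0.09 on that scale. Without Gramd1c-/- high replicate 5 the median was -0.07. By edgeR 0 members were called, against 0.00666% of all genes. An unadjusted p below 0.05 by edgeR was found for 1.3% of members, against 2.42% of all genes. The 1 member below it, as by DESeq2 and by limma, was Cox7a1 (log2 fold change 0.73, SE 0.33, adjusted p = 1.0). Its log2 CPM, the fitted scale, overlapped in that comparison although its TPM did not, and no member had groups that did not overlap on that scale, against 0.206% of all genes. Averaged over diets, Cox7a1 again had the smallest p (0.62, SE 0.24, adjusted p = 0.999). In that average 0 members were called, against 0.00666% of all genes, and 2 had an unadjusted p below 0.05, as by DESeq2, with 1 by limma. By edgeR that was 2.6% of members, against 2.98% of all genes. All 4 complex II subunits were lower in Gramd1c-/- mice on average (median -0.14, smallest adjusted p = 0.999), and 13 of 17 ATP synthase subunits were lower (median -0.08). Over all 77 members the median was -0.04, which became 0.00 with total-count scaling and -0.13 without both libraries that stand apart.

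No member passed the test in the comparisons between diets. In Gramd1c+/+ mice 57 of 77 members were higher on high cholesterol, with a median of 0.10, against 0.01 over all genes. Of the 77 members, 0 were called by edgeR, DESeq2 or limma, against 0.44% of all genes by edgeR. An unadjusted p below 0.05 was found for 1, 1 and 0. By edgeR that was 1.3% of members, against 7.93% of all genes. On the log2 CPM scale no member had groups that did not overlap, against 2.12% of all genes. The median was -0.02 without Gramd1c+/+ high replicate 3 and 0.02 without Gramd1c+/+ low replicate 2. Cox6c2 had the smallest p (1.76, SE 0.77, adjusted p = 0.589), followed by Cox6c (0.38), Ndufa1 (0.40), Atp5a1, which was lower (-0.20), and Ndufc1 (0.35). Without Gramd1c+/+ high replicate 3 the values were 0.22 for Cox6c, 0.11 for Ndufa1 and 0.17 for Ndufc1, and without Gramd1c+/+ low replicate 3 that of Atp5a1 was -0.11.

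In Gramd1c-/- mice 71 of 77 members were higher on high cholesterol, with a median of 0.22, against 0.02 over all genes. The medians were 0.26 for complex I, 0.23 for complex III, 0.22 for complex IV and 0.19 for the ATP synthase, and complex II was at -0.00. Again 0 members were called by any of the 3 tools, against 0.326% of all genes by edgeR. An unadjusted p below 0.05 was found for 2 by edgeR, 3 by DESeq2 and 7 by limma. By edgeR that was 2.6% of members, against 11.4% of all genes. Ndufb4, an accessory subunit of complex I (chromosome 16, 37647170 to 37654453, minus strand), had the smallest p. It stood at 45.97, 47.0, 39.2 and 45.4 TPM on low and at 70.8, 75.1, 45.2, 48.4 and 126 TPM on high cholesterol. The groups overlapped through replicate 3 of the high group, replicate 4 lay just above the low group, and replicate 5 was highest (log2 fold change 0.74, SE 0.30, adjusted p = 0.383). Ndufs5 (0.54, adjusted p = 0.392), Cox6c (0.52, adjusted p = 0.446), Ndufb7 (0.50, adjusted p = 0.458) and Ndufb8 (0.37, adjusted p = 0.461) followed. Without Gramd1c-/- high replicate 5 the log2 fold change was 0.41 for Ndufb4, 0.33 for Ndufs5, 0.27 for Cox6c and 0.22 for Ndufb7. On the log2 CPM scale no member had groups that did not overlap, against 4.34% of all genes. In TPM the groups of some members did not overlap, but the share of all genes apart on that scale was not counted. Among these members, Cox4i1 stood at 579.9 TPM or less on low and at 621.4 TPM or more on high cholesterol. Without that share these TPM values cannot be set against a background. The median over members was 0.14 without Gramd1c-/- high replicate 5 and 0.37 without replicate 3.

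Averaged over genotypes, 69 of 77 members were higher on high cholesterol (median 0.17, against 0.02 over all genes), and 0 were called, against 1.3% of all genes. Unadjusted p-values below 0.05 numbered 4 by edgeR, 6 by DESeq2 and 4 by limma, which is 5.19% of members by edgeR against 18.3% of all genes. Cox6c, a small complex IV subunit (chromosome 15, 35925886 to 35938246, minus strand, overlapping Vps13b on the opposite strand), had the smallest p. It stood at 83.2, 90.3, 85.4, 110 and 105 TPM in Gramd1c+/+ low and at 96.4, 91.3, 95.7 and 91.9 TPM in Gramd1c-/- low. On high cholesterol it stood at 109, 120, 144, 88.8 and 126 TPM in Gramd1c+/+ and at 152, 131, 86.6, 88.6 and 208 TPM in Gramd1c-/- mice. In each genotype the highest values were on the high diet, but 2 of its 5 high-diet mice did not exceed the highest low-diet mouse (log2 fold change 0.45, SE 0.18, adjusted p = 0.195). Ndufb4 (0.46), Ndufs5 (0.34), Ndufa5 (0.38) and Cox7c (0.37) followed, with adjusted p from 0.244 to 0.275. Without Gramd1c-/- high replicate 5 Ndufb4 was at 0.29 and Ndufa5 at 0.25. By role, all 28 accessory subunits of complex I and all 5 small subunits of complex III were higher (medians 0.22 and 0.31), against 5 of 7 complex I core subunits (0.06) and 3 of 5 subunits of the ATP synthase head and stem (0.04).

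The size of the diet difference went with coding length in the members, and weakly outside them. Averaged over genotypes, Spearman rho was -0.77 over 75 members and -0.18 over 13174 other genes. By deposited gene length, 406 other genes under 500 bases had medians of 0.34 in Gramd1c+/+ and -0.12 in Gramd1c-/- mice. Averaged over genotypes the median was 0.27 for members with a coding length under 450 bases, 0.10 from 450 to under 900 bases, 0.02 from 900 to under 1500 bases and -0.19 for the 4 members of 1500 bases or more. For other genes of these classes the medians were 0.16, 0.05, -0.00 and -0.04. Ribosomal protein genes had a median of 0.22, with 75 of 80 higher and 0 called. The part of the length-related swing in the diet difference was not tested.

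**Figure D5:**
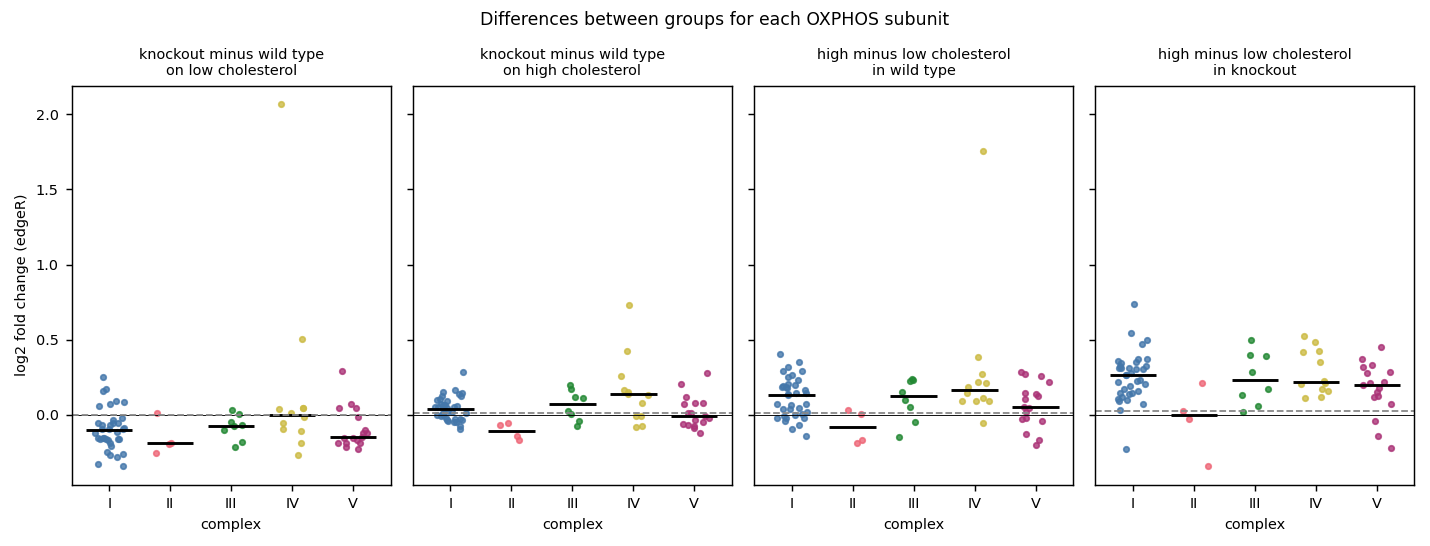
Log2 fold changes (edgeR) of 77 OXPHOS subunits in the 4 comparisons between groups, by complex. Points are subunits, black bars the medians of each complex and dashed lines the median of all genes tested. In Gramd1c-/- mice 71 of 77 points lie above 0 for high minus low cholesterol, complex II is centred near 0, and the highest point for knockout minus wild type on low cholesterol and for diet in Gramd1c+/+ mice is Cox6c2.

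The diet difference was not shown to differ between genotypes. The interaction, the diet difference in Gramd1c-/- minus that in Gramd1c+/+ mice, had a median of 0.14 over members (0.02 over all genes), and 64 of 77 were above 0. By edgeR 0 members were called, against 0.0% of all genes, and 0 had an unadjusted p below 0.05, as by DESeq2, with 1 by limma. Over all genes 1.66% lay below that unadjusted threshold by edgeR. Cox6c2 (-1.64, SE 1.04) and Ndufb8 (0.41, SE 0.26) had the smallest p-values, both with adjusted p = 1.0, and Ndufb4 and Ndufs5 followed. The median was 0.03 without Gramd1c-/- high replicate 5.

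Related genes were read in the same fit, and none was called in any of the 7 comparisons in the lists that follow. Of the 13 mitochondrially encoded subunits 12 were higher on high cholesterol in Gramd1c+/+ mice (median 0.49). An unadjusted p below 0.05 was found for 6 of them, against 7.93% of all genes by edgeR. It was found for 4 without Gramd1c+/+ low replicate 2 and for 2 without Gramd1c+/+ high replicate 3. With all mice mt-Nd2 was at 0.51 (SE 0.15, adjusted p = 0.299), mt-Nd1 at 0.66 and mt-Nd4 at 0.70. In Gramd1c-/- mice 10 of 13 were higher (median 0.12), and on the low diet all 13 were higher in Gramd1c-/- than in Gramd1c+/+ mice (median 0.33, smallest adjusted p = 0.999). Gramd1c+/+ low replicate 2, the library with adrenal markers, had the lowest median log2 CPM deviation for these genes. Without it, an alternative added after seeing the data, all 13 were still higher (median 0.23), and the diet median in Gramd1c+/+ mice was 0.38, or 0.33 without Gramd1c+/+ high replicate 3. Without Gramd1c-/- high replicate 5 the diet median in Gramd1c-/- mice was 0.015. All 13 had an interaction below 0 (median -0.35, and -0.17 without Gramd1c+/+ high replicate 3), where 64 of 77 nuclear subunits were above 0. For knockout minus wild type on the low diet the nuclear and mitochondrial subunits lay on opposite sides of 0 (medians -0.10 and 0.33), a difference that was not tested.

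Assembly factors, which build the complexes but are not part of them, had smaller diet medians than most of the complexes, with the difference not tested. Averaged over genotypes the medians were 0.07 for 16 complex I assembly factors, 0.13 for 4 of complex II, 0.06 for 6 of complex III, 0.10 for 19 of complex IV and -0.03 for 5 of the ATP synthase. Coenzyme Q synthesis genes (12) had a median of 0.05, the 14 genes of mitochondrial DNA maintenance and transcription 0.00, 13 subunits and partners outside the rule such as Cycs and Slc25a5 0.04, and the citric acid cycle genes -0.04. Among 11 regulators the median was -0.05, and Nrf1 (0.00, SE 0.08), Gabpa (-0.21, SE 0.11), Yy1 (-0.19, SE 0.08) and Ppargc1a, the coactivator of mitochondrial biogenesis (0.20, SE 0.18), had adjusted p from 0.221 to 0.996. Yy1 and Gabpa were lower on the high diet while most of the subunits were higher, and none of these differences passed the test.

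Markers of other liver cells were read for each mouse, and their part in the subunit values was not tested. Summed cholangiocyte markers were 216 TPM in Gramd1c-/- high replicate 3, the mouse with the lowest subunit median, and 43.1 to 85.5 TPM in the other mice. Kupffer cell and macrophage markers ranged from 145.6 to 758 TPM, with the highest value in Gramd1c-/- high replicate 4. Sinusoidal endothelial markers ranged from 85.0 to 160 TPM, stellate cell markers from 128 to 262 TPM and red cell markers from 58.5 to 150 TPM, with overlap between all groups. Heart markers summed to at most 3.04 TPM, pancreas markers to 16.8 to 80.0 TPM and lymphocyte and neutrophil markers to 4.29 to 10.6 TPM.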

How the data were processed

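Liver RNA of 19 female mice was sequenced as poly(A) libraries. For every mouse the authors deposited a table of unnormalised counts by gene, with positions and lengths. Per the labels, STAR 2.5.2b and GRCm38 were used. No source used here names the counting tool, strand setting or annotation release. In GENCODE M21, 36 members overlap another gene, 28 on the opposite strand, and reads in such overlaps cannot be assigned if strand was ignored. Symbols were matched by gene ID for 48970 of 49315 genes.

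edgeR 4.0.16 (R 4.3.3) was fitted to all 19 mice with TMM scaling, genes kept by filterByExpr (minimum count 10), group means as coefficients and the quasi-likelihood F test, adjusted by Benjamini-Hochberg over 15016 genes (threshold 0.05). TPM was calculated from counts and deposited lengths. Averaged effects are means of the 2 simple effects. Floors cover counting error only. The fit was tested on simulated data. DESeq2 1.42.0, which tested 81 members, and limma 3.58.1 on log2(TPM + 1) were alternatives, beside other scalings, filters, samples and left-out mice.

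Members and lists were chosen with earlier results of these data known. The values of 1 member are not reported here, although counts and medians include it. Named were the 3 highest and the lowest detected member of each complex, the 5 smallest p-values per comparison, called members, paralogue groups and members that failed the filter. Sdhb, Ndufs1, Atp5b, Uqcr11 and others named for how they moved between mice were chosen after their values were seen.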

Additional observations from a re-analysis of the deposited data

Results flagged for a closer look

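Among 212 sets of 4 or 5 mice examined for a value far from the rest, 9 stood out. For independent, normally distributed values the rule flags about 1 in 20 groups. These sets share mice, and a group with 1 mouse above 0 is always flagged, so that rate need not apply here. The cause was not tested for any of them.

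Cox8b reached 7.59 TPM in Gramd1c+/+ low replicate 2, the library with adrenal and fat markers, while the other 4 mice of the group were at 0. Cox8b also stood at 0.43 TPM in Gramd1c-/- low replicate 4 and at 0.208 TPM in Gramd1c+/+ high replicate 5, with the other mice of each group at 0. These values are 2 counts and 1 count.

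Ndufa1, a small accessory subunit of complex I, was 532 TPM in Gramd1c+/+ high replicate 3 against 267 to 341 TPM in the other 4 mice, and 244 TPM in Gramd1c-/- low replicate 4 against 360 to 375 TPM in the other 3. Cox4i1 was 580 TPM in Gramd1c-/- low replicate 1 against 566 to 568 TPM, a small gap in a narrow group.

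Sdhb was 306 TPM in Gramd1c-/- high replicate 2 against 210 to 232 TPM. Cox4i2 stood at 0.55 TPM in Gramd1c-/- high replicate 5 against at most 0.188 TPM, and Cox6a2 at 0.489 TPM in Gramd1c+/+ high replicate 3 against at most 0.111 TPM. Both rest on 8 counts or fewer per mouse.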

How the results depend on the processing

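The count of 0 members called held in all 7 comparisons under each alternative run: DESeq2, RLE or total-count scaling, no filter or a stricter one, only the groups compared, limma on log2(TPM + 1), the replicate block, each mouse left out in turn and both libraries that stand apart left out. Median log2 fold changes over members moved by less than the within-group SD of 0.30 in each case, which is larger than each median as reported. With single mice left out they ranged from -0.18 to -0.05 for genotype on low and from -0.07 to 0.15 on high cholesterol, from -0.02 to 0.20 for diet in Gramd1c+/+, from 0.14 to 0.37 in Gramd1c-/- and from 0.11 to 0.23 for diet averaged. The diet average was 0.08 without both libraries that stand apart. The replicate block gave 0.14 for that average. Replicate numbers are not said to pair mice. Over 27 pairs of same-numbered mice the mean correlation of deviations was -0.07, against 0.02 over 108 pairs with different numbers. These values cannot show whether mice were paired, and the block changed no call. Ndufb4, knockout minus wild type on high cholesterol, turned from 0.29 to -0.045 without Gramd1c-/- high replicate 5, alone or with Gramd1c+/+ low replicate 2, and reached 0.47 without Gramd1c+/+ high replicate 3. All genes called for the averaged diet numbered 195, against 600 by DESeq2. Members below 10 counts cannot be compared at this depth.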
